A study of Homo sapiens with 4 samples.

Results

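Chromatin immunoprecipitation followed by sequencing (ChIP-seq) with an antibody against the HA tag gave, in the 2nd of a pair of replicates, 539 peaks at gene ends that lay far from every peak of the 1st replicate. These peaks were selected on the readout itself. A peak of replicate 2 on chromosomes 1 to 22 was taken when it met the window of 1 kb on either side of an outer end of a RefSeq protein-coding gene and when at least 5 kb separated it from the nearest replicate 1 peak. They are called replicate 2-only gene-end peaks here, and they made up 6.86% of the 7858 gene-end peaks of replicate 2 (Wilson 95% interval 6.32 to 7.44%). The group they were set against was the 5737 gene-end peaks of replicate 2 that overlapped a replicate 1 peak by at least 1 bp, called found in both (73.0%). A further 1582 peaks neither overlapped a replicate 1 peak nor lay 5 kb away, and are called intermediate. In all, the series held 260246 peaks, of which 93618 were in the replicate 2 list and 166628 in the replicate 1 list.

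The cells, an untreated subclone of the human line MDA-MB-231, derive from a triple-negative breast cancer and carry wild type as the genotype label in every sample. Each replicate had 1 ChIP library, labelled PD-L1 and made with the HA antibody, and 1 input library made without antibody; the labels do not say how the tag entered the cells. A mock precipitation was not analysed here, so recovery of chromatin without the tagged protein cannot be told apart from binding. Depth is unknown, because each replicate came as 1 list of peaks with no read counts. Merge is part of the peak names of the replicate 2 list, and the labels do not explain the word. With 1 list per replicate, a peak that only one list holds has no replicate value, so counts and medians are given without a test, and all intervals cover counting error only. Fold enrichment and −log10 q are the values of the authors' peak caller for each peak; both come from the contrast that chose the peaks, and they describe only.

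PD-L1, encoded by CD274, is a membrane protein that binds the receptor PD-1 on T cells and restrains their activity. It is mostly studied at the cell surface, and a nuclear pool has been described. In human cells, gene starts are often open, rich in CG pairs and active, while clusters of tissue-restricted genes, such as olfactory receptors or late skin proteins, lie in closed chromatin in most tissues.

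The promoters below show the DNA that these peaks covered at gene starts. Shown are the 4 replicate 2-only peaks of highest −log10 q that held the whole stretch of 250 bases before a RefSeq start (a choice made after the values were seen). TMEM183A encodes a transmembrane protein, and GNL3 encodes nucleostemin, a nucleolar GTPase. PHC1 encodes a polyhomeotic subunit of Polycomb repressive complex 1, and PTAR1 a protein with prenyltransferase alpha subunit repeats. The sequences are from RefSeq (GRCh38.p14), 5′ to 3′ on the gene's strand, with CG pairs in capitals. The stretches are chr1:203007124-203007373, plus strand, chr3:52685670-52685919, plus strand, chr12:8914259-8914508, plus strand, and chr9:69760012-69760261, minus strand.
TMEM183A: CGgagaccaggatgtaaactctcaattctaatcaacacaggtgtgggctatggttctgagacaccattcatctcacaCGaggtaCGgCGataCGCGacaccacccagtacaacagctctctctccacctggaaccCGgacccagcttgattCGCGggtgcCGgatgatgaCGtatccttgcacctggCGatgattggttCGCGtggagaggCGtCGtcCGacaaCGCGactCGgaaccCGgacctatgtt
GNL3: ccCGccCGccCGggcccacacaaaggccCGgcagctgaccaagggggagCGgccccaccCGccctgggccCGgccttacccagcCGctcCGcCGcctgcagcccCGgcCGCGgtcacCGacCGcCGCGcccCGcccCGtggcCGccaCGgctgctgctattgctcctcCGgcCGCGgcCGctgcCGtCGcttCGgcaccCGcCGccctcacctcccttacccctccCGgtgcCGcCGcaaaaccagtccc
PHC1: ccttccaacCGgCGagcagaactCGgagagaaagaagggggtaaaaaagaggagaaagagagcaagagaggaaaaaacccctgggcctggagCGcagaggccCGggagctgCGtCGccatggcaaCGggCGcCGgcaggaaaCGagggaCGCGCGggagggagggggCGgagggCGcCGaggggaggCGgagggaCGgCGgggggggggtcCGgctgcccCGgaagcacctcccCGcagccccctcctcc
PTAR1: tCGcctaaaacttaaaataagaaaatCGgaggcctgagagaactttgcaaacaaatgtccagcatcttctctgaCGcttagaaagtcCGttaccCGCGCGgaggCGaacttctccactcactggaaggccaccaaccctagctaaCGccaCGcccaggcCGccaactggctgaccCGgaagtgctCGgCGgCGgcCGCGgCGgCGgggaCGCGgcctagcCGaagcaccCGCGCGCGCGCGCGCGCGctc

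For comparison, the 3 found-in-both peaks of highest −log10 q chosen the same way held the promoters of CTH, which encodes cystathionine gamma-lyase, KIDINS220, a membrane scaffold of neurotrophin signalling, and IQGAP1, a scaffold of the cytoskeleton. Their stretches are chr1:70411018-70411267, plus strand, chr2:8837614-8837863, minus strand, and chr15:90387992-90388241, plus strand, with CG pairs in capitals.
CTH: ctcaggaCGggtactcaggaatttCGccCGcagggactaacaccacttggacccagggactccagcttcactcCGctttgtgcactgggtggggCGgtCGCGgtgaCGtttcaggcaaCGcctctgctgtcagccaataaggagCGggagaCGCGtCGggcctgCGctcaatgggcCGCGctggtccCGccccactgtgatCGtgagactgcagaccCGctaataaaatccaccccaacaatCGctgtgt
KIDINS220: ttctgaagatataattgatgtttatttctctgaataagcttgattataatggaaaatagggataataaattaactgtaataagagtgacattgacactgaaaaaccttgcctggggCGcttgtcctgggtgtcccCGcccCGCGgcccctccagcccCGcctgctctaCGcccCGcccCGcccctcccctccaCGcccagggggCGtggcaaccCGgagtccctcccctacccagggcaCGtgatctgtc
IQGAP1: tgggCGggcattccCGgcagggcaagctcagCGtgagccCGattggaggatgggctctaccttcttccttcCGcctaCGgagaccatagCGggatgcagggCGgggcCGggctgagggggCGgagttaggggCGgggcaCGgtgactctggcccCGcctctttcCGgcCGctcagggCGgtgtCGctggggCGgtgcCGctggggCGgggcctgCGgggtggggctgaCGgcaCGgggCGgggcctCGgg

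The stretches hold 21, 33, 23 and 31 CG pairs in the replicate 2-only promoters of TMEM183A, GNL3, PHC1 and PTAR1, against 20, 12 and 25 in the found-in-both promoters of CTH, KIDINS220 and IQGAP1. CG-rich promoters therefore stood in both sets, and the promoters as a whole are compared further on.

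The one replicate 2-only peak beside CD274 lay at the start of its neighbour PLGRKT, which encodes a plasminogen receptor and is read from the minus strand. The peak (chr9:5437377-5438385, hg38) was 1009 bp wide with a fold enrichment of 2.67 and a −log10 q of 1.82. It was 211917 bp from the nearest replicate 1 peak and 12156 bp from CD274, and it was the replicate 2 peak nearest to CD274. Neither list had a peak inside CD274; the nearest replicate 1 peak was 179748 bp away from it. No gene-end peak of replicate 2 was found at JAK2 or PDCD1LG2. The RefSeq promoter that the PLGRKT peak held is chr9:5437926-5438175, minus strand, with CG pairs in capitals, and starts 452 bp inside the gene's outer end.
PLGRKT: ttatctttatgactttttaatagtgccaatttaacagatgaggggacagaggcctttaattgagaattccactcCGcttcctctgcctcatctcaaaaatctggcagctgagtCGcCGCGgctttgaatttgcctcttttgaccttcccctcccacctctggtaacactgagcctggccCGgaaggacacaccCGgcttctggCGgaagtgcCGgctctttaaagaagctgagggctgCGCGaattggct

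The 539 peaks met the ends of 561 protein-coding genes, 2.93% of the 19126 genes considered, against 29.2% (5586 genes) with a found-in-both peak at an end. Of the 561 genes, 491 had no other kind of gene-end peak, 53 also had a found-in-both peak and 17 an intermediate one only. A single gene was met by 500 of the peaks, and 39 met more than 1, at most 3. Several peaks at 1 gene were rare. GALNT17, a glycosyltransferase gene of 581456 bp, had 3, and 16 other genes had 2 each. Both ends were met in 26 genes, 16 of which are shorter than 2 kb, so that 1 peak can reach both windows.

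Replicate 2-only peaks were less frequent at gene ends than elsewhere. Away from gene ends, 16433 of 85248 replicate 2 peaks (19.3%, interval 19.0 to 19.5%) lay 5 kb or more from replicate 1, and the gene-end share was below that of the other peaks on 22 of 22 chromosomes. Overlap with replicate 1 was 73.0% at gene ends, against 50.4% for the other peaks.

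The share of gene-end peaks that were replicate 2-only differed widely between chromosomes. It was 26.5% on chromosome 21 (13 of 49 peaks; interval 16.2 to 40.3%), and 19.5%, 18.1%, 17.7%, 16.1% and 15.2% on chromosomes 8, 13, 4, 22 and 18. The share was 0.447% on chromosome 20 (2 of 447 peaks; interval 0.123 to 1.62%), 2.21% on chromosome 16 and 2.65% on chromosome 17. In number, chromosome 1 held the most with 79 and chromosome 2 followed with 52. Chromosomes with a high share were those where replicate 1 had few peaks per Mb, counted over the span from the first to the last gene or peak. Across the 22 chromosomes the share and the replicate 1 peak density had a Spearman rho of −0.93 and a Pearson r of −0.79. Without chromosomes 19 and 20, the 2 farthest from the median density, rho was −0.93 and r was −0.85. Against the peak density of replicate 2, rho was −0.83 and r −0.71. Most chromosomes with a high share were sparse in both lists. Chromosome 22 was an exception, with 35.6 replicate 2 peaks per Mb against 30.3 on chromosome 1. These are descriptions, because the rule itself counts distance to replicate 1 peaks. On chromosomes 21 and 22 replicate 2 also held more peaks relative to replicate 1 than elsewhere. Its number of peaks was 0.797 and 0.783 times that of replicate 1 there, and 0.504 to 0.646 times on the other chromosomes.

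**Figure D1:**
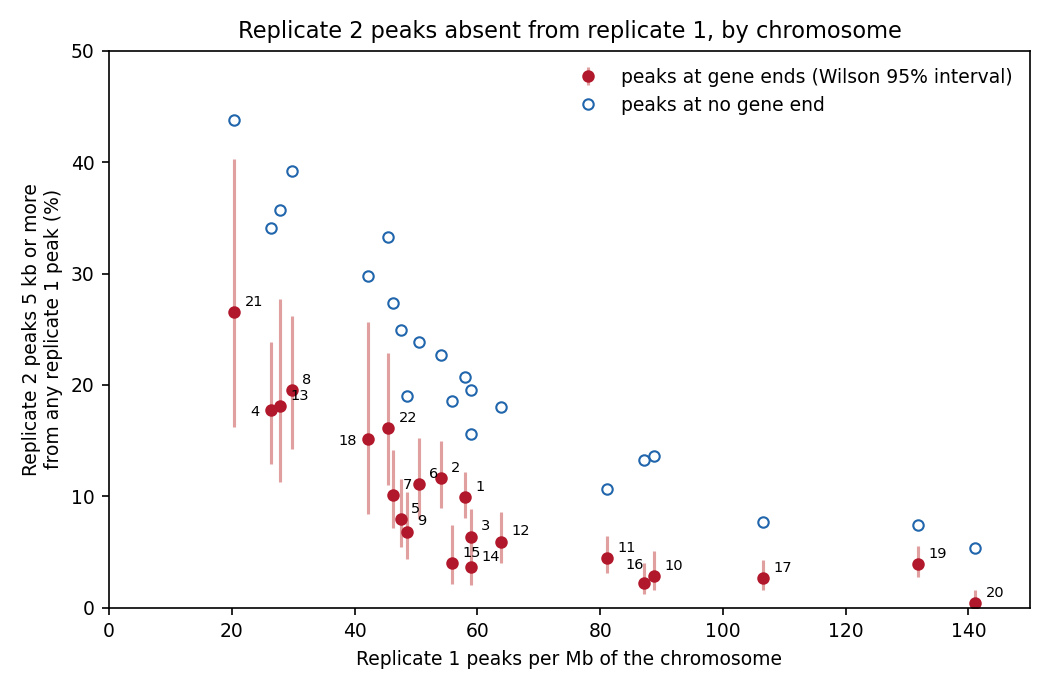
Share of replicate 2 peaks lying 5 kb or more from any replicate 1 peak (vertical axis, percent) against replicate 1 peaks per Mb (horizontal axis), 1 point per chromosome, for peaks at gene ends (filled, with Wilson 95% intervals and chromosome numbers) and at no gene end (open). The filled points fall to the right, with chromosome 21 at 26.5% and chromosome 20 at 0.447%, and each lies below the open point of its chromosome.

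The distance to replicate 1 had a median of 13350 bp and ran from 5004 to 448311 bp. It was 10 kb or more for 335 peaks (62.2%), 50 kb or more for 64 and 100 kb or more for 18. The 5 farthest peaks had 2 to 10 other replicate 2 peaks and 1 to 4 replicate 1 peaks within 500 kb. PCDH18, a protocadherin gene on chromosome 4, had its start peak 448311 bp away, with 2 other replicate 2 peaks within 500 kb. The start peak of NRIP1, which encodes a corepressor of nuclear receptors, was 335839 bp away on chromosome 21. SLCO1C1, a thyroid hormone transporter gene, ZNF727, a zinc finger gene, and ARHGAP24, a GTPase-activating protein gene, followed at 274676, 261461 and 250463 bp. At the threshold itself, the peaks just inside were at SPG11 (5004 bp), VWA1 (5063 bp) and KARS1 (5066 bp), and those just outside at LEUTX (4986 bp), GNAZ (4978 bp) and SH3RF3 (4977 bp).

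Replicate 2-only peaks were narrower than those found in both lists. Their median width was 565 bp (quartiles 327.5 to 887 bp; n = 539), against 808 bp for found-in-both peaks (483 to 1233 bp; n = 5737). Narrow peaks under 300 bp were 20.4% of the replicate 2-only peaks (110) and 9.67% of those found in both (555). Peaks of 1 kb or more were 17.1% (92) and 35.8% (2055). The median of all replicate 2 peaks on these chromosomes was 636 bp. Within chromosomes, the replicate 2-only median was the lower one on 17 of 22 and the higher one on 5, with a median ratio of 0.79 (range 0.44 to 1.34).

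Median width was higher at overlap and hardly changed with distance. An overlap of 1 bp is easier to reach for a wide peak, and its part in this step was not tested. The median was 565.5 bp for peaks 50 kb or more from replicate 1 (n = 64), 554 bp at 10 to 50 kb (n = 271) and 597 bp at 5 to 10 kb (n = 204). For intermediate peaks it was 572.5 bp at 1 to 5 kb and 579.5 bp under 1 kb. The 5 widest replicate 2-only peaks were at CSAD, a taurine synthesis gene (2704 bp), SYT17, a synaptotagmin family gene (2306 bp), the shared start of CENPS, a centromere protein gene, and CENPS-CORT (2218 bp), C2orf74 (2026 bp), and between NIPSNAP1, a mitochondrial protein gene, and THOC5, an mRNA export gene (1994 bp). The widest found-in-both gene-end peak was 8022 bp.

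Enrichment was low in both sets. Median fold enrichment was 2.44 in replicate 2-only peaks (range 1.80 to 3.62) and 2.16 in those found in both, and it was higher in the replicate 2-only set on 22 of 22 chromosomes. In peaks under 300 bp the medians were 2.53 and 2.23, and in those of 1 kb or more 2.51 and 2.17, so width bins kept the same order. The median −log10 q hardly differed, at 1.79 in replicate 2-only peaks and 1.78 in found-in-both peaks. A −log10 q of 2 or more was reached by 178 replicate 2-only peaks (33.02%), against 1600 found in both (27.9%). It was 3 or more in 19 and 5 or more in 0 of the 539. The highest of them ranked 303 among the 93106 replicate 2 peaks on chromosomes 1 to 22.

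The 10 replicate 2-only peaks of highest −log10 q were mostly narrow, 8 of them under 400 bp, and lay at genes of many kinds. The first was at the start of PROX2, a homeobox gene (chr14:74875347-74875586; 240 bp, fold 3.34, −log10 q 4.07, 5918 bp from replicate 1). The 3′ end of AK5, an adenylate kinase gene, followed at 3.94 (fold 3.57, 323 bp). PDE6H, which encodes the inhibitory subunit of cone phosphodiesterase, had its 3′ peak also at 3.94 (fold 3.62, 263 bp). TMEM183A came next at 3.74 with the widest peak of the 10, 847 bp over the promoter printed above (chr1:203006970-203007816). The peak at an end of HBB, the adult beta-globin gene, was 227 bp wide with a −log10 q of 3.74 and a distance of 45939 bp (chr11:5226879-5227105). Then came the 3′ end of SMCHD1, a chromatin protein of X inactivation (3.63), and the start of EFCAB9, which encodes a partner of the sperm calcium channel (3.45). The 3′ ends of OR7D4, an odorant receptor gene for androstenone (3.43), and of C1orf94 (3.39) and the start of BMPR1B, a bone morphogenetic protein receptor gene (3.30), completed the 10. Found-in-both gene-end peaks began at a similar level, with PPIH, a cyclophilin gene, at 4.53, BNIP1 at 4.49 and ANKRD24 at 3.93.

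The neighbourhood of replicate 2-only peaks was sparse. Within 500 kb of the centre, the median number of other replicate 2 peaks was 29 (quartiles 16 to 57), against 80 (52 to 106) around found-in-both peaks and 63 around intermediate ones. It was lower than around found-in-both peaks on 22 of 22 chromosomes, with a median ratio of 0.51 (range 0.16 to 0.96). The difference was small on some, with 60 against 62.5 on chromosome 22 and 39 against 42 on chromosome 21. Replicate 1 peaks numbered 47 around replicate 2-only peaks and 149 around those found in both, a difference that the rule sets in part. Protein-coding genes, which the rule did not rank, numbered 10 and 17 (14 around intermediate peaks) and were fewer around replicate 2-only peaks on 17 of 22 chromosomes, equal on 1 and more on 4.

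The density of replicate 2 peaks fell off step by step with distance, unlike width. The median number of other replicate 2 peaks was 9 around peaks 50 kb or more from replicate 1, 28 at 10 to 50 kb and 45 at 5 to 10 kb, against 60 at 1 to 5 kb, 66 under 1 kb and 80 at overlap. The gene number was 5, 9 and 13 in the 3 replicate 2-only bins, against 12, 15 and 17 in the others. It did not fall at every step, with 13 at 5 to 10 kb and 12 at 1 to 5 kb. The extremes show the spread among the 539. The 3′ end of CACNA1C, an L-type calcium channel gene, had 157 other replicate 2 peaks within 500 kb. The start shared by GNL3 and PBRM1, a chromatin remodelling subunit gene, had 137, the far end of GNL3 with GLT8D1 had 135, COPS3 had 134 and NODAL, a ligand of early development, had 132. At the other extreme NDST3, a heparan sulfate enzyme gene, had 1, and PCDH18, ARHGAP24, ZNF727 and ACER2, a ceramidase gene, had 2 each.

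**Figure D2:**
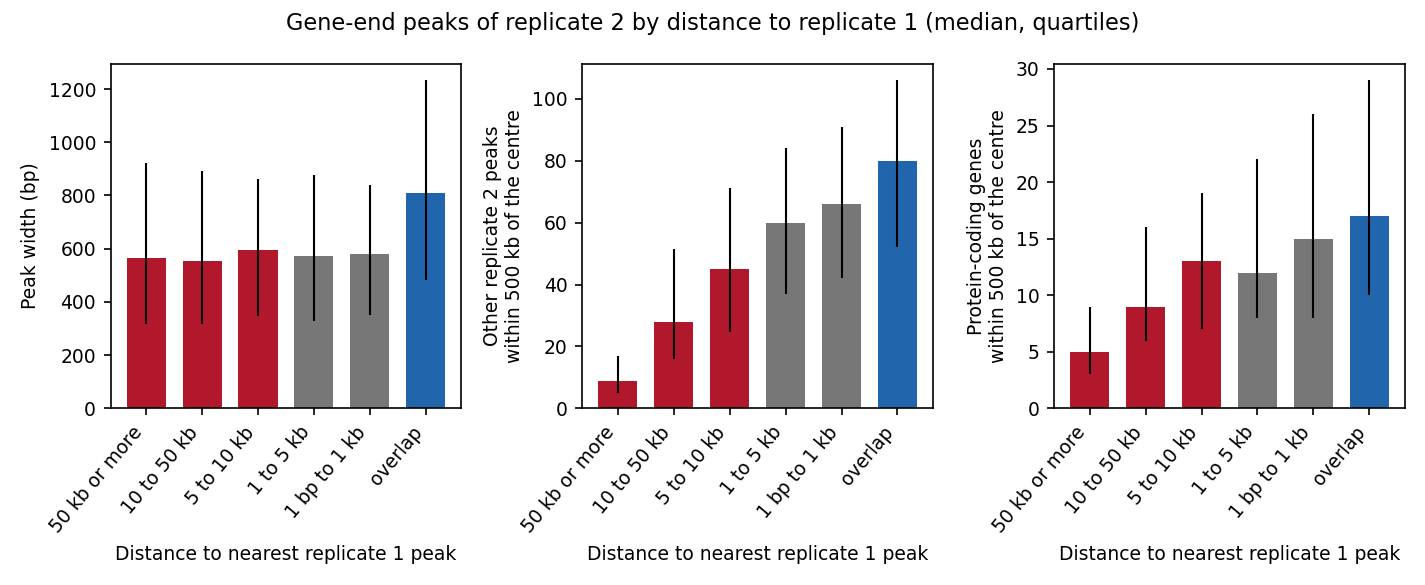
Peak width in bp (left), other replicate 2 peaks within 500 kb (middle) and protein-coding genes within 500 kb (right) for gene-end peaks of replicate 2 in bins of distance to replicate 1; bars are medians and lines the quartiles, red for replicate 2-only, grey for intermediate and blue for found in both. Width is 554 to 597 bp in all bins but the overlap bin at 808 bp, whereas the median number of replicate 2 peaks runs 9, 28, 45, 60, 66 and 80 from the farthest bin to overlap.

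A minority of the peaks stood close together. Another replicate 2-only gene-end peak lay within 100 kb of 84 of them (15.6%), and the median distance to the nearest was 898 kb. Joined at 100 kb, 6 stretches held 3 or more. On chromosome 1, 4 peaks ran through LCE1C, LCE1F and LCE2A, late cornified envelope genes of skin, and SMCP, a sperm mitochondrial gene (chr1:152697921-152885416). Replicate 1 had 8 peaks in that stretch. On chromosome 19, 4 peaks ran from OR10H5 through CYP4F2 and CYP4F11, fatty acid hydroxylase genes, where replicate 1 also had 8 peaks. FPR1 and FPR2, the formyl peptide receptors of phagocytes, held 3 within chr19:51745951-51761918, where replicate 1 had 0 peaks. CRYBB3, a lens crystallin gene, with KIAA1671 likewise held 3 within chr22:25198078-25208394 and no replicate 1 peak. The others were RSPH1 with UBASH3A on chromosome 21 and CALN1 with GALNT17 on chromosome 7, with 3 each. Replicate 1 had 8 peaks in the stretch on chromosome 21 and 1 in that on chromosome 7.

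Gene starts were met more often than gene 3′ ends. Strand was not known at 120 of the 539 replicate 2-only peaks, among them all 33 on chromosome 8. It was also unknown at 1101 of the 5737 found-in-both peaks. Peaks without a known strand are in none of the comparisons of starts, 3′ ends and promoters. Among replicate 2-only peaks of known strand, 264 of 419 (63.0%, interval 58.3 to 67.5%) met only a start, 139 (33.2%) only a 3′ end and 16 both. Among found-in-both peaks, 2634 of 4636 (56.8%, interval 55.4 to 58.2%) met only a start and 37.4% only a 3′ end. In intermediate peaks, 46.7% met only a start and 49.8% only a 3′ end. Centres also lay nearer to the start. Within 500 bp of it were 60.1% of 301 replicate 2-only pairs of peak and start, against 46.2% of 3235 found-in-both pairs. The widths of the sets differed too (medians 565 and 808 bp), and their part in this was not tested. At 3′ ends the order turned round, with 27.7% of 159 pairs and 33.4% of 2170 pairs. The outer end itself lay inside 31.0% of replicate 2-only peaks (167 of 539), 22.4% of intermediate peaks and 35.9% of those found in both.

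**Figure D3:**
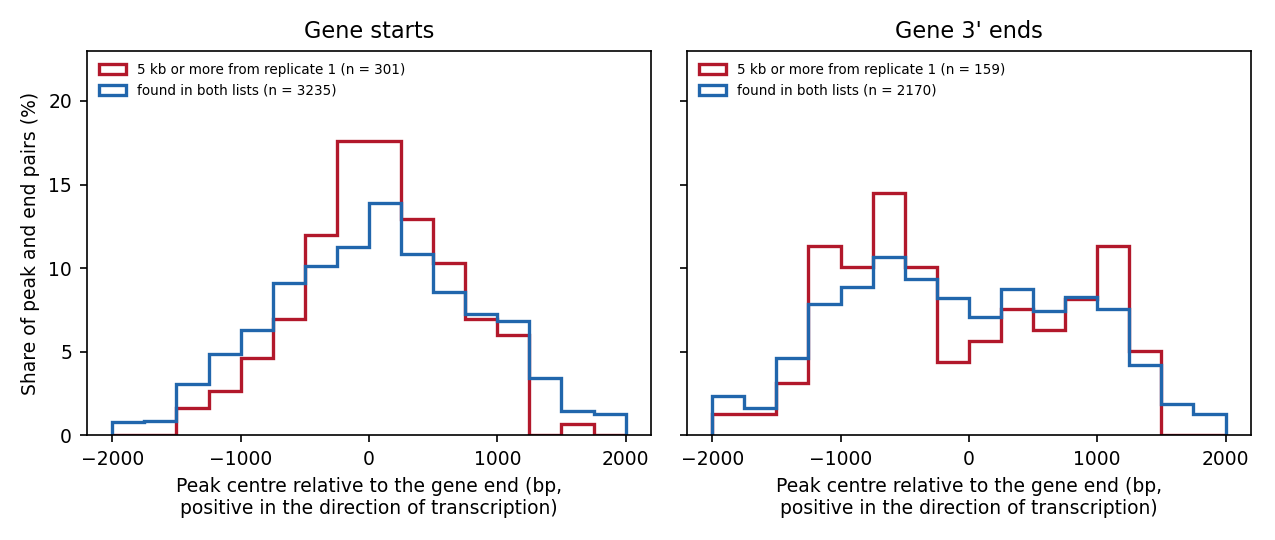
Distribution of peak centres around gene starts (left) and gene 3′ ends (right) in bp, positive in the direction of transcription, as percent of peak and end pairs in bins of 250 bp, for replicate 2-only (red) and found-in-both peaks (blue); the outermost bins also hold more distant centres. At starts the red line stands higher around 0, where 60.1% against 46.2% of centres lie within 500 bp, and at 3′ ends it does not (27.7% against 33.4%).

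Genes with a replicate 2-only peak were long. Their median length was 39.3 kb (quartiles 14.3 to 106 kb), against 21.2 kb for genes with a found-in-both peak, 25.02 kb for those with an intermediate peak and 24.5 kb for all genes.

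Promoters with a replicate 2-only peak at the start had less GC than those with a found-in-both peak. Over the 300 bases from 250 before to 50 after the RefSeq start, median GC was 58.5% (n = 276) against 64.7% (n = 2960), and it was 62.3% in promoters with no replicate 2 peak at the start. Within chromosomes GC was the lower one on 19 of 20. The observed over expected ratio of CpG pairs was 0.6 or more in 59.8% (interval 53.9 to 65.4%), against 75.6% (74.0 to 77.1%) of found-in-both promoters and 67.5% of all. Its median was 0.75 against 0.80, lower on 13 of 20 chromosomes.

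The letters of the GC box were less frequent, and those of the TATA box more frequent, than in found-in-both promoters. The GC-box letters GGGCGG, searched on both strands, stood in 47.5% of replicate 2-only promoters (interval 41.6 to 53.3%), against 67.5% of found-in-both promoters and 59.4% of all 13868. The TATA-box letters TATAAA stood in 10.1% (7.11 to 14.3%), against 5.44% (4.68 to 6.32%) and 9.84% of all. The CCAAT box differed less, with 32.2% against 36.3% and 36.4% of all. The palindromes TGACGTCA, a cyclic AMP response element, and CACGTG, an E-box, stood in 3.62% and 9.06% of replicate 2-only promoters, against 3.75% and 10.1% of those found in both and 2.73% and 8.84% of all. Each motif was counted on its own, so overlapping matches count for both, and a match is a description of letters only.

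**Figure D4:**
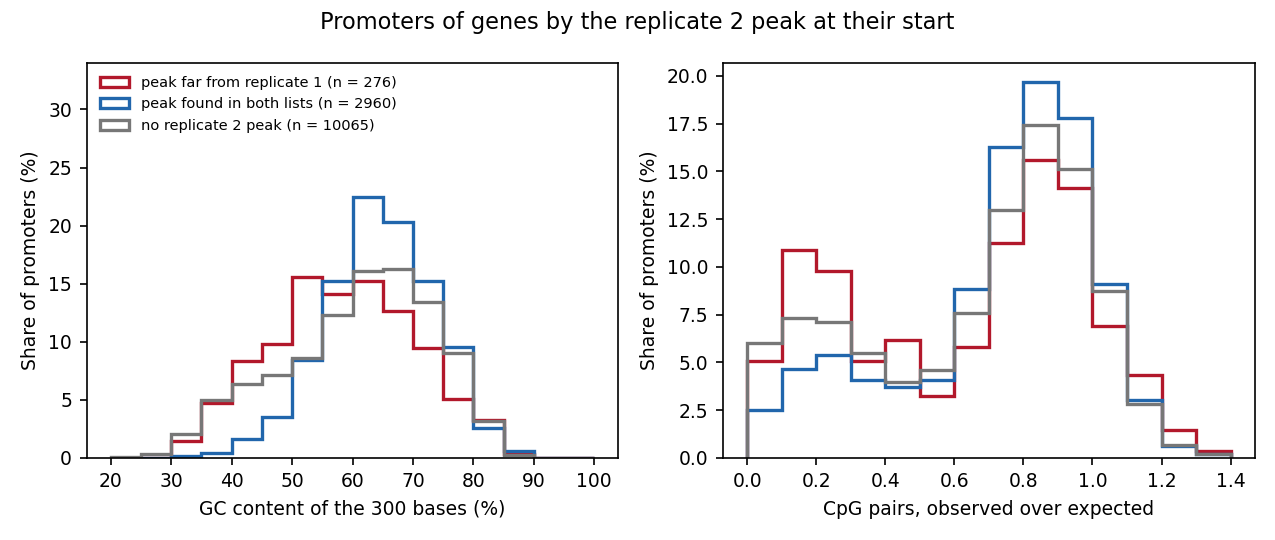
GC content in percent (left) and observed over expected CpG pairs (right) of 300-base promoters, as percent of promoters per bin, for genes whose start met a replicate 2-only peak (red, n = 276), a found-in-both peak (blue, n = 2960) or no replicate 2 peak (grey). The red line is shifted to lower GC (median 58.5% against 64.7% in blue), and its left hump of CpG-poor promoters is taller, with 59.8% against 75.6% at a ratio of 0.6 or more.

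The family shares were set beside those of all genes in each set of peaks. In 27 of 44 families and pathway lists at least 1 gene had a replicate 2-only peak. The interval of 1 family, the serpins, lay above the 2.93% of all genes, and 0 lay below it. Most lists were too small to lie below it, since a count of 0 in 53 genes still had an upper limit of 6.76%. The number of intervals outside the value of all genes is therefore not comparable between the 2 sets of peaks. For found-in-both peaks the shares ranged widely around 29.2%, with 7 intervals below it and 4 above it, those of proteasome subunits, acetylation genes, cytosolic ribosomal proteins and solute carriers. Neighbouring family members can share a peak or a cluster, so genes of a family are not independent.

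Olfactory receptors, the largest sensory family, had a replicate 2-only peak at 15 of 389 genes (3.86%, interval 2.35 to 6.26%) and a found-in-both peak at 16 (4.11%, 2.55 to 6.58%). The replicate 2-only interval holds the 2.93% of all genes, while the found-in-both interval lies far below their 29.2%. Replicate 2-only genes were thus 39.5% of the 38 receptor genes with any gene-end peak, against 7.67% over all genes. This was not particular to the receptors. The same share was 40% of 5 genes for keratin-associated proteins and 33.3% of 15 for serpins, and 0 in the 17 lists without a replicate 2-only gene. Of the 15 receptor genes, 8 lay on chromosome 11, 5 of these below 6 Mb where HBB also lies. They were OR51Q1 (−log10 q 2.47), OR52D1 (2.47), OR52N4 (2.07), OR52M1 (1.92) and OR51F2 (1.91), and OR51F2 was the one farthest from replicate 1, at 93052 bp. OR7D4 and OR10AD1 (2.92) had the highest values of the family. The bitter taste receptors had 1 of 25, TAS2R60.

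The replicate 2-only shares of the skin and barrier families were near the 2.93% of all genes, while keratin-associated proteins and beta-defensins lay below the 29.2% of all genes for found-in-both peaks. Keratin-associated proteins, the matrix of hair, had 2 of 94 genes (2.13%), KRTAP10-6 and KRTAP5-11, against 1 (1.06%) found in both. Beta-defensins, antimicrobial peptides, had 1 of 39 (2.56%; DEFB1), against 10.3% found in both. Keratins had 1 of 55 (1.82%; KRT24), against 30.9%, near the shares of all genes.

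Serpins, a family named for its serine protease inhibitors, had 5 of 33 genes (15.2%, interval 6.65 to 30.9%), against 8 (24.2%) found in both. They were SERPINC1, which encodes antithrombin (1039 bp, −log10 q 2.14, 6431 bp from replicate 1), SERPINB13 with 2 peaks (1.90 for the higher) and SERPINB10 (1.54) on chromosome 18, and SERPINA9 (1.48) and SERPINA4 (1.45) on chromosome 14. The pairs lie in the 2 known serpin clusters. Of 44 families examined, an interval outside the value of all genes in 1 is given as a count, without a test.

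Enzyme and transporter families included 13 of 384 solute carriers (3.39%), against 131 found in both. SLC27A6, a fatty acid transporter gene, was highest (−log10 q 2.07), and SLC12A2, the sodium, potassium and chloride cotransporter gene, lay 114040 bp from replicate 1. Cytochromes P450 had 4 of 56, of which CYP4F2, CYP4F11 and CYP4F12 are neighbours on chromosome 19 and CYP27C1 is on chromosome 2. Ubiquitin-specific proteases had 3 of 71, led by USP49 (3.27), and kinesins 3 of 41 (KIF19, KIF7 and KIF9). LDHB, a lactate dehydrogenase gene, was the one of 18 glycolysis genes (2.35). The replicate 2-only intervals of all these families and of the glycolysis list hold the 2.93% of all genes.

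ZNF zinc finger genes, mostly transcriptional repressors, had 15 of 506 (2.96%) and 125 found in both (24.7%). Of the 15, ZNF506 was highest (−log10 q 2.58), and ZNF568 and ZNF829 shared 1 peak over their facing starts. Among chromatin proteins, PHC1 was the one of 18 Polycomb repressive complex 1 genes (1191 bp, −log10 q 2.65, 28055 bp from replicate 1). AEBP2, an accessory subunit of Polycomb repressive complex 2, was the one of 11 on that list. Its start peak was 315 bp wide with a −log10 q of 1.63, whereas the highest of the 9 replicate 2 peaks in the gene reached 44.6. Its relatives differed at their ends: JARID2 had 1 found-in-both peak at an end and MTF2 had no gene-end peak. Inside these genes the highest replicate 2 peak also had a high −log10 q, 51.3 in JARID2 and 15.8 in MTF2. Replicate 1 had 34 peaks in JARID2, 1 in AEBP2 and 0 in MTF2, against 28, 9 and 5 in replicate 2.

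Of the house-keeping complexes, the found-in-both intervals of cytosolic ribosomal proteins and proteasome subunits lay above the 29.2% of all genes, while their replicate 2-only intervals held the 2.93% of all genes. Cytosolic ribosomal proteins had 1 of 83 genes (RPL22) against 33 (39.8%) found in both, and proteasome subunits 2 of 49 (PSMD4 and PSMD12) against 25 (51.0%). Mitochondrial ribosomal proteins had MRPL39 and MRPS18A of 77 genes (2.60%), against 35.1% found in both, and complex I of the respiratory chain had NDUFS4 of 35 (2.86%), against 25.7%. Both pairs of shares are near those of all genes. The clustered histones had 1 of 71 genes, H4C9, whose peak was 208 bp wide (−log10 q 2.65). Found-in-both peaks met 6 of the 71 histone genes (8.45%, interval 3.93 to 17.2%), below the 29.2% of all genes. Among channels, collagens and others, CACNA1C and SCN11A stood for 39 calcium and sodium channels, KCNB2 and KCNIP3 for 94 potassium channels, COL5A1 (2.67) and COL1A2 (2.06) for 42 collagens, and CCL25 and CCL24 for 82 chemokines and interleukins. RAB42 and RAB32 stood for 67 RAB GTPases and TRIM13 for 77 tripartite motif genes.

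In the immune and cancer lists, single genes were met. NFKB1, which encodes the p105 and p50 forms of NF-kB, was the one of 20 NF-kB genes (chr4:102500448-102500995; 548 bp, −log10 q 1.79, 47391 bp from replicate 1). BRCA1, a DNA repair gene, was the one of 23 breast cancer drivers, with a peak of 1720 bp that met its start and that of its neighbour NBR1, an autophagy receptor gene (chr17:43169485-43171204; −log10 q 1.94, 40281 bp). In 17 of the 44 lists no gene had a replicate 2-only peak. A count of 0 was taken to allow up to 3 over the number of genes. This is 5.66% for 53 translation initiation factors and 53 clustered protocadherins, 7.50% for 40 HOX genes and 10.3% for 29 interferon genes. It is 11.5% for 26 acetylation genes, 15% for 20 MHC class I genes and 15.8% for 19 B7 and checkpoint genes. The Wilson upper limits are higher, for example 6.76% for the 53 protocadherins and 8.76% for the 40 HOX genes. These limits include the 2.93% of all genes. Found-in-both peaks met 14 of the 26 acetylation genes (53.8%).

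**Figure D5:**
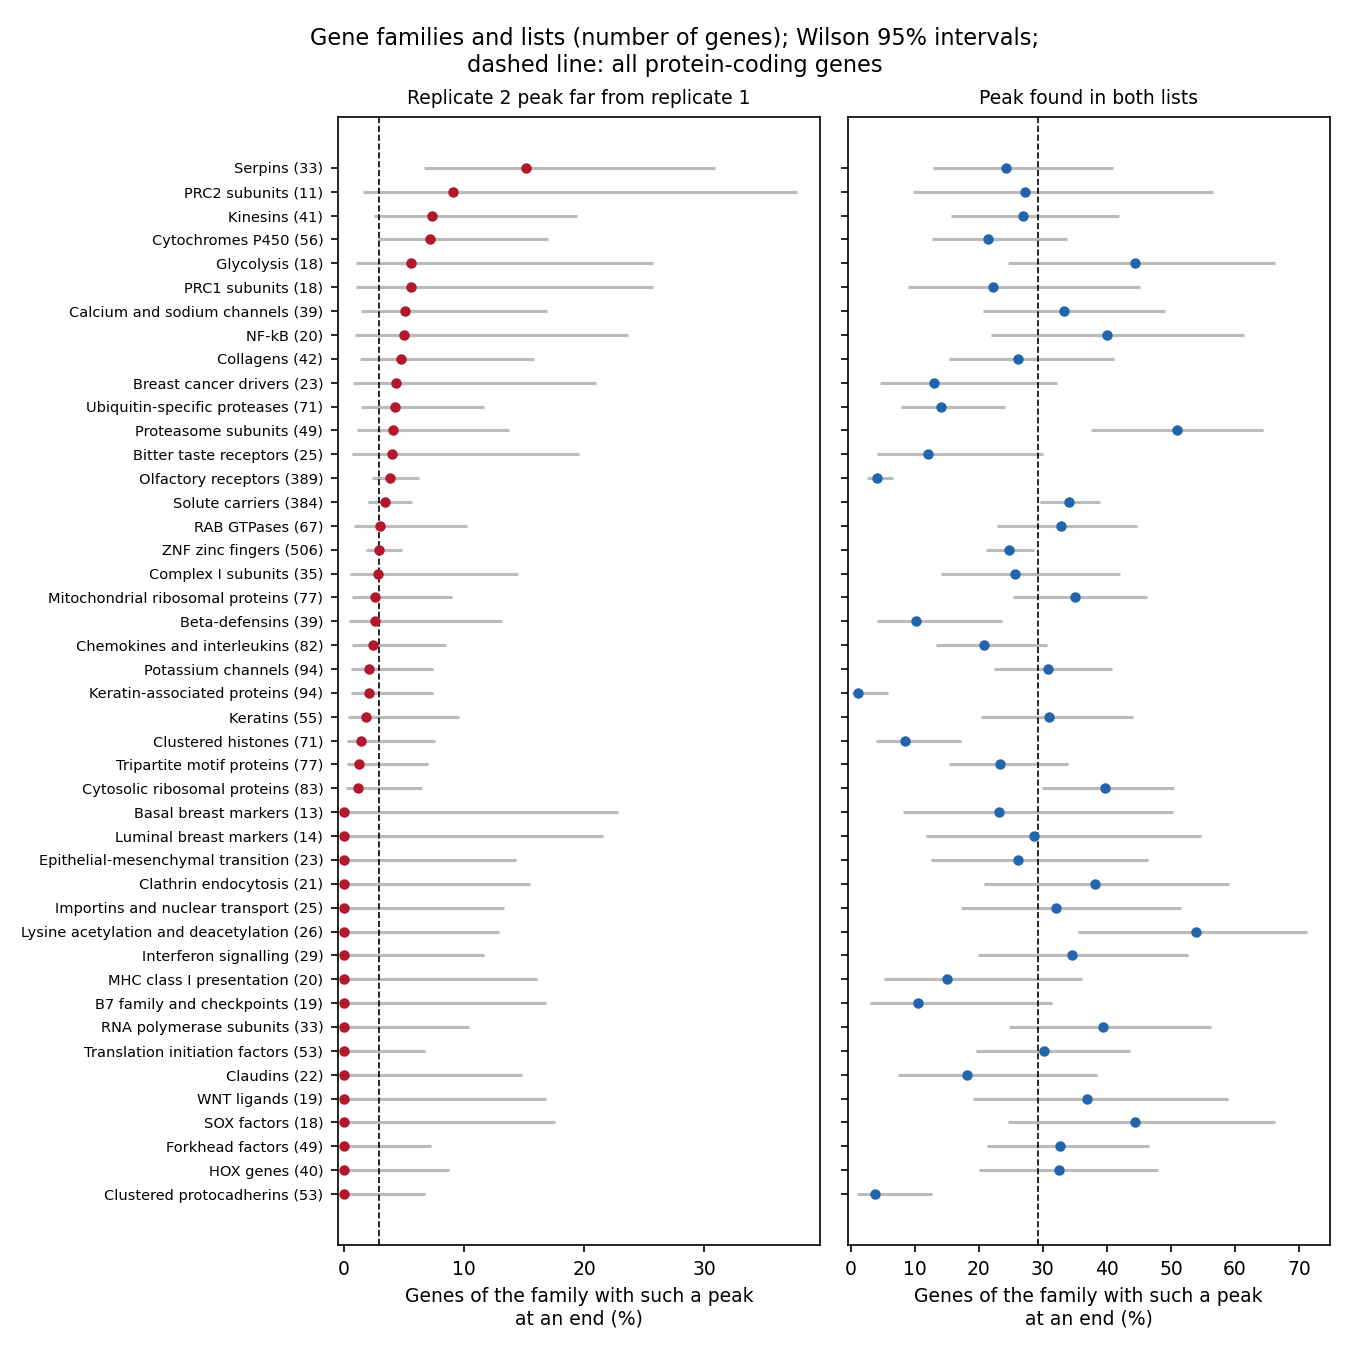
Share of the genes of 44 families and lists (number of genes in brackets) with a replicate 2-only peak (left) or a found-in-both peak (right) at an end, in percent with Wilson 95% intervals; dashed lines mark all genes at 2.93% and 29.2%. On the left most intervals cross the line and the serpins lie above it, and on the right the olfactory receptors (4.11%) and keratin-associated proteins stand far below it.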

How the data were processed

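ChIP-seq peaks came as 1 broad peak list per replicate in hg38. Bowtie2 2.2.9 and MACS2 2.1.1 stand in the submitters' processing notes, with thresholds and settings not given in the sources used here. Column 5 of the deposited lists is a score, column 7 the fold enrichment (a ratio) and columns 8 and 9 the −log10 p-value and −log10 q-value that the authors' caller gave each peak, per the layout of the broad peak format. Reads and input signal were not used here, so the depth per sample is unknown.

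Gene ends are the outermost coordinates of 19126 protein-coding genes of a RefSeq table (GRCh38.p14, the build of hg38). Strand came from the RefSeq promoter table for 15101 of them; promoters count where their start lies within 1 kb of the outer end (13868), and a promoter met by several kinds of peak counts as replicate 2-only first. Distances are gaps in bp, densities count peak centres or genes within 500 kb, and intervals are Wilson 95% intervals. The code for distances, overlaps, densities and gene ends was checked on made-up peaks with known answers. Python 3.11.15, pandas 2.3.3, NumPy 2.4.6, SciPy 1.17.1 and Matplotlib 3.10.9 were used.

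The peaks and the gene lists were chosen with earlier results of these data known. Named genes are the 10 peaks of highest −log10 q, the 5 widest, the 5 farthest, the 5 genes with most peaks, the 5 peaks with most and the 5 with fewest neighbours, the 3 on each side of the threshold, the highest of each list, the 3 highest found in both, CD274 and its neighbours, and 3 Polycomb genes; other members of lists and the genes in stretches were named after their values were seen. Promoters to print were to come from the 10 highest peaks, but of these only TMEM183A had its promoter inside the peak, so the choice given with the sequences replaced that rule. Alternatives were other distances, windows, overlaps, radii and peak filters.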

Additional observations from a re-analysis of the deposited data

Results flagged for a closer look

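Chromosome X was outside the comparison and also held peaks that meet the distance rule. Of 83 gene-end peaks of replicate 2 on X, 63 (75.9%) lay 5 kb or more from every replicate 1 peak, against 6.86% on chromosomes 1 to 22. The highest −log10 q among them was 3.29 at SMIM10 (274519 bp from replicate 1), followed by 2.94 at HUWE1, a ubiquitin ligase gene (175409 bp). Both lists were sparse on X, with 485 peaks (3.11 per Mb) in replicate 2 and 235 (1.51 per Mb) in replicate 1. On chromosomes 1 to 22 the densities ran from 14.9 to 89.1 per Mb in replicate 2 and from 20.3 to 141 per Mb in replicate 1. Where replicate 1 has so few peaks, a distance of 5 kb is easily passed. The share of X peaks at no gene end is not given here, so the count shows nothing particular to gene ends. No input or mock peaks were analysed here to set beside this count.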

How the results depend on the processing

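The direction of the width, density and gene-number ratios (replicate 2-only over found in both, 0.70, 0.36 for replicate 2 peaks, 0.32 for replicate 1 peaks and 0.59 for genes) was below 1 under every alternative run. With no overlap in place of 5 kb there were 2121 peaks (26.99%) at 2196 genes, with density ratios of 0.70 and 0.70 and a gene ratio of 0.76. At 2 kb there were 888 (11.3%) at 922 genes, with density ratios of 0.50 and 0.46. At 10 kb there were 335 (4.26%) at 353 genes, with 0.30 and 0.24. At 20 kb there were 190 (2.42%) at 201 genes, with 0.23 and 0.18 and a gene ratio of 0.41. Windows of 5 kb gave 1390 peaks at 1355 genes. A −log10 q of at least 2 gave 178 peaks (7.87%) at 190 genes, with a width ratio of 0.57 and a replicate 2 density ratio of 0.43. The 50% of replicate 2 peaks with the higher fold gave a share of 13.6% and a replicate 2 density ratio of 0.74. As many replicate 1 peaks as replicate 2 has gave 1527 peaks (19.4%) at 1589 genes, a width ratio of 0.79 and density ratios of 0.50 and 0.38. With chromosome X the share was 7.58% and the replicate 1 density ratio 0.28. A reciprocal overlap of 50% gave a width ratio of 0.61. Densities within 100 kb gave ratios of 0.33, 0.26 and 0.75 for replicate 2 peaks, replicate 1 peaks and genes, and within 1 Mb a replicate 1 ratio of 0.36. The median of ratios within chromosomes, added after seeing the data, was 0.79 for width, 0.51 and 0.42 for the densities and 0.69 for genes. Fewer peaks pass a longer distance by construction; for the other moves the cause was not tested. Of 528 family shares recomputed, 76 moved out of their interval, 32 up and 44 down.

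No paired analysis was possible because each result comes from the lists as they stand and from no test. Leaving out a replicate was not run, since the choice of peaks needs both lists. Without read counts, weak peaks near the caller's threshold limit the result, and signal under that threshold in replicate 1 was not analysed here.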

Other observations

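Grouping genes by the letters of their symbols, a choice made after the values were seen, gave small groups that the lists did not cover. The 6 with the highest share among groups of at least 10 genes with at least 3 such genes are given; over all genes, 2.93% had a replicate 2-only peak and 29.2% a found-in-both peak. Of 16 MS4A genes, membrane proteins that include the B cell antigen CD20, 3 had a replicate 2-only peak (MS4A13, MS4A14 and MS4A6A), against 2 found in both. Of 19 LCE genes, which encode cornified envelope proteins, 3 had a replicate 2-only peak (LCE1C, LCE1F and LCE2A), against 1 with a found-in-both peak. Of 31 CLEC genes, mostly lectin receptors of immune cells, 3 had one (CLEC12A, CLEC4D and CLEC5A), against 2 found in both. Of 29 genes whose symbols begin with SEC, which share letters and not one function, 3 had one (SEC11C, SEC14L3 and SEC16B), against 6. Of 24 METTL genes, mostly methyltransferases, 3 had one (METTL16, METTL18 and METTL8), against 10 found in both. Of 33 ARHGAP genes, 3 had one (ARHGAP24, ARHGAP25 and ARHGAP42), against 11. These groups were picked for their share, so it supports nothing about them. Of 17 genes with several replicate 2-only peaks, the pair at PRKD1, a protein kinase gene, lay farthest from replicate 1, at 60921 and 62774 bp.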
